A study of Mus musculus with 3 samples.

Results

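In head RNA of *tuft* embryos, 8 of the 10 Eph receptor genes had lower normalized counts than in wild type, to unequal extents. Among all 13979 genes with at least 10 counts over both libraries, 8457 were lower as well. *Ephb1*, *Epha2*, *Epha4* and *Ephb4* were 4.09-fold to 23.6-fold lower, and *Epha3* had no count in *tuft*. *Ephb2* and *Ephb3* differed by less than 2-fold, *Epha7* was 1.72-fold higher and *Epha1* was 3.08-fold higher. The receptors were taken by their symbols alone, as the EphA and EphB genes *Epha1*, *Epha2*, *Epha3*, *Epha4*, *Epha5*, *Epha7*, *Ephb1*, *Ephb2*, *Ephb3* and *Ephb4*, and all 10 were found among the 24062 genes counted.

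Eph receptors are tyrosine kinases of the cell surface, and their ligands, the ephrins, sit on the membrane of neighboring cells. EphA receptors mainly bind the lipid-anchored ephrin-A proteins and EphB receptors mainly bind the transmembrane ephrin-B proteins, with EphA4 able to bind both kinds. Binding can signal into both cells and repels or attaches them, which keeps cell populations apart at boundaries, guides axons and crest cells and separates arteries from veins. In the embryonic head, ephrin-A and EphA7 are known for the adhesion of the cranial neural folds at the midline.

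RNA came from rostrums, which are the front of the head, dissected at E9 from embryos with 18 to 22 somites. The *tuft* embryos were homozygous for the *tuft* allele, a nonsense mutation of *Tet1* that arose spontaneously in the 3H1 colony, and had neural tube defects (NTDs). *Tet1* encodes an enzyme that oxidizes methylated cytosine in DNA. The controls were wild-type (WT) embryos of the background strain, 3H1 Balb, at the same stage. For each genotype 1 library was made from the pooled RNA of 3 embryos, so that no value has a replicate error, no test between genotypes was possible and the pool gives no value for a single embryo. The labels list 2 *tuft* samples and 1 WT sample, and the single *tuft* column of counts could not be tied to either *tuft* sample.

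The counts on genes summed to 6433067 in *tuft* and 14251942 in WT, and levels are given as CPM, the counts of a gene scaled to 1000000 of these counts in each library. A count of 0 allows up to 3 counts, which is 0.466 CPM for the *tuft* library and 0.21 CPM for WT. Fold changes are *tuft* over WT after normalization by the trimmed mean of M-values (TMM), with a 95% interval that covers counting error only. This interval takes every read as independent and can be too narrow where amplified copies were counted. Scaling by library totals alone, without TMM, would lower every log2 fold change by 0.39. A gene was called lower or higher in *tuft* where this whole interval lay past 2-fold. The mutated gene, *Tet1*, had 32 counts in *tuft* and 435 in WT, a fold change of 0.214 (0.145 to 0.307). Of the 12 markers of forebrain and neural ectoderm all had counts in WT and 11 in *tuft*, where *Hesx1* was at 0 and *Rax* had 2 counts against 389 in WT. The hindbrain genes *Egr2*, *Hoxa2*, *Hoxb1* and *Hoxb2* were at 0 in *tuft* and at 0 to 8 counts in WT. The libraries differed in many genes: the percentage of the 13979 genes with at least 10 counts over both libraries that were called lower was 29.8%, and 17.4% were called higher, with a median log2 fold change of -0.46. In bulk tissue, fewer cells of a type and less RNA per cell cannot be told apart.

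Of the 10 receptors, 5 were called lower, 1 was called higher and 4 were not called, where 29.8% of all genes tested were called lower and 17.4% higher. All 10 had at least 10 counts over both libraries, and their median log2 fold change was -1.71, with *Epha3* and *Epha5*, which had no count in *tuft*, set to 3 counts there. The share called depends on the level of a gene, so the receptors are also set beside genes of like level. In the range of 10 to 300 CPM, as the mean of both libraries after normalization, 22.8% of 8811 genes were called lower and 20.9% higher, and their median log2 fold change was -0.03. This range was chosen after the levels of the receptors were known. Of the 8 receptors in it, 4 were called lower and 1 higher, with a median log2 fold change of -1.44. The only receptors outside it were *Epha3* and *Epha5*, both below.

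**Figure D1:**
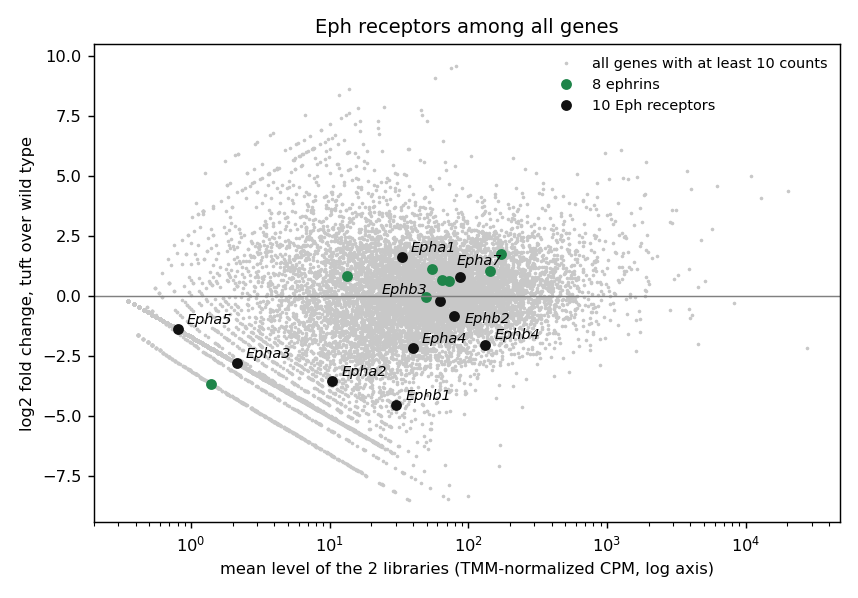
Each gray dot is 1 of the 13979 genes with at least 10 counts, with the mean level of both libraries on the x axis (TMM-normalized CPM, log axis) and the log2 fold change of *tuft* over WT on the y axis; black dots are the 10 Eph receptors and green dots the 8 ephrins. Counts of 0 are drawn at 3 counts, and *Ephb1*, at -4.56, lies lowest of the receptors while *Epha1* and *Epha7* lie above 0.

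The sum of the 10 receptors was 1691 counts in *tuft* and 8702 in WT, which is 263 and 611 CPM. The fold change of this sum was 0.566 (0.537 to 0.596). The sum of the EphB receptors was lower, with 825 counts in *tuft* and 6265 in WT and a fold change of 0.383 (0.356 to 0.412). The sum of the EphA receptors, with 866 and 2437 counts, had a fold change of 1.03 (0.956 to 1.12), which is no difference beyond counting error, whereas by library totals alone it was lower in *tuft*, at 135 CPM against 171. This value rests on *Epha1*, which shares bases with *Zyx* and is uncertain. Without it the EphA sum was 621 and 2205 counts and lower in *tuft*, with a fold change of 0.820 (0.749 to 0.897). Within the EphA group, *Epha1* and *Epha7* had a fold change above 1 and the other 4 receptors below 1. All 4 EphB receptors had a fold change under 1, and so did 4 of the 6 EphA receptors. Of the 13979 genes tested, 8457 had a fold change under 1.

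The promoters of 5 receptors are shown because the enzyme encoded by *Tet1* acts on cytosine in the CpG dinucleotide. They were picked after their values were seen: *Ephb1*, *Ephb4* and *Epha4* were called lower with the most counts in WT, and *Epha1* and *Epha7* were the receptors that were higher in *tuft*. The stretches are RefSeq sequence of GRCm38.p6, 5′ to 3′ on the strand of the gene, and end where the annotated gene begins. Capitals mark each CpG.
*Ephb1*, chr9:102354694-102354943, minus strand: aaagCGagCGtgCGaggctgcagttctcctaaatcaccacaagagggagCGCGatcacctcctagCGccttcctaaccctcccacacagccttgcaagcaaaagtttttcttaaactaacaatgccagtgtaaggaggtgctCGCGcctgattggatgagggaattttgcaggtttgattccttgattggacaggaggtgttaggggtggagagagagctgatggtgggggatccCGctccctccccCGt
*Ephb4*, chr5:137349859-137350108, plus strand: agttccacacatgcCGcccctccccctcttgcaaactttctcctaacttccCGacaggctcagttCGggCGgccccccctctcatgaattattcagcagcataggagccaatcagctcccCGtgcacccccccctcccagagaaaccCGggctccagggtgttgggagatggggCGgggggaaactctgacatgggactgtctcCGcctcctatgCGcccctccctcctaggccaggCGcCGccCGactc
*Epha4*, chr1:77515108-77515338, minus strand: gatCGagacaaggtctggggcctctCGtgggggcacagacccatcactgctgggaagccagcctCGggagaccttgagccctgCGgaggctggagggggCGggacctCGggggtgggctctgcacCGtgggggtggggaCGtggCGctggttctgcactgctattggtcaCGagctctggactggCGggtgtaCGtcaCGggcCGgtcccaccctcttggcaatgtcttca
*Epha1*, chr6:42373315-42373518, minus strand: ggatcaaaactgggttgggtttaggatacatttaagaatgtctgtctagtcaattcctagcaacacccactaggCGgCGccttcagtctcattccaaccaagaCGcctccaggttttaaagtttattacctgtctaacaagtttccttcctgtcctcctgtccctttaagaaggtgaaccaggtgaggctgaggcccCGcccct
*Epha7*, chr4:28812881-28813065, plus strand: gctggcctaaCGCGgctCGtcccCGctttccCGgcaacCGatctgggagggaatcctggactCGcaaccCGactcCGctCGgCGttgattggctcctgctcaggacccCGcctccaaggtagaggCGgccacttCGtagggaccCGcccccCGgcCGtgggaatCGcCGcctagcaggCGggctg

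These stretches hold 10 CpGs in 250 bases for *Ephb1*, 12 in 250 for *Ephb4*, 14 in 231 for *Epha4*, 4 in 204 for *Epha1* and 20 in 185 for *Epha7*. For all receptors, windows of 300 bases were compared, from 250 bases before to 50 bases after a start of the gene. RefSeq gives 11 such windows for the 10 receptors, 2 of them for *Epha7*. They hold from 10 CpGs in *Epha2* to 30 in *Epha5*, and each is above the median of 7 over all 32851 windows. The 5 receptors called lower had 10 in *Epha2*, 14 in *Ephb1*, 14 in *Ephb4*, 17 in *Epha4* and 18 in *Epha3*. Of the 5 others, *Epha1* had 14, *Ephb3* 23, *Ephb2* 24, *Epha7* 28 and 27 and *Epha5* 30. The windows of the receptors called lower held 10 to 18 CpGs and those of the other receptors 14 to 30. This split depends on the calls. *Epha5*, with 30, had no count in *tuft*, and by library totals alone *Epha5* and *Ephb2* were called lower as well. The GC box GGGCGG, searched on both strands, was in the windows of 7 of the 10 receptors and in 35.7% of all windows. Methylation was not measured in these libraries, and the CpG content was not tested against the fold changes.

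*Ephb4*, the receptor of veins and a main partner of ephrin-B2, was the most abundant Eph receptor of the WT head. Its position in GRCm38 is chromosome 5, 137350109 to 137374522. *Tuft* gave 255 counts and WT 3039, or 39.6 and 213 CPM. The fold change was 0.244 (0.214 to 0.278), or 4.09-fold lower. Among the 2005 genes at 100 to 300 CPM, 4.29% had a lower log2 fold change, and 13.5% were called lower.

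Because *Ephb4* is expressed in endothelium, the endothelial markers are given beside it. Of 12 markers, 4 were called lower, 1 was called higher and 7 were not called. Among all genes tested, 29.8% were called lower and 17.4% higher. Of the 12, 8 had a fold change below 1 and 4 above, beside 8457 below and 5522 above among all genes tested. The summed level of the 12 markers was 418 CPM in *tuft* and 627 in WT. *Nrp2* had the most counts of these markers in each library, 1249 in *tuft* and 1869 in WT. Its fold change was 1.95 (1.81 to 2.09), so it weighs on the sum against the markers that were lower. *Pecam1* had no count in *tuft* and 443 in WT, *Flt4* had 22 and 815, *Kdr* 117 and 1237 and *Cdh5* 161 and 1376, whereas *Emcn* had 197 and 136. The vascular markers therefore did not move together, and their part in the value of *Ephb4* was not tested.

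*Ephb1* had the lowest fold change of the 8 receptors with counts in both libraries, with an interval that overlapped that of *Epha2*. The gene (chromosome 9, 101922128 to 102354693) encodes a receptor known for the guidance of retinal axons. Only 12 counts were found in *tuft* against 825 in WT, or 1.87 and 57.9 CPM. The fold change was 0.0424 (0.0218 to 0.0744), which is 23.6-fold lower (13.4 to 45.9). Of the 3872 genes at 30 to 100 CPM, 1.37% had a lower log2 fold change. *Ephb1* has several predicted or small RNA genes within its span, and the only one of them with a row in the counts, *Mir7243*, was at 0 in both libraries.

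*Ephb2* and *Ephb3*, receptors that act together in axon pathfinding and palate formation, were nearer to WT. *Ephb2* (chromosome 4, 136647536 to 136836326) gave 277 counts in *tuft* and 1443 in WT, a fold change of 0.559 (0.490 to 0.636) that was not called. *Ephb3* (chromosome 16, 21204620 to 21223309) had 281 and 958 counts, and its fold change of 0.854 (0.745 to 0.977) was not called either. Within a library the counts of *Ephb2* and *Ephb1* can be set against each other without any scaling between libraries. There were 1.75 counts of *Ephb2* for each count of *Ephb1* in WT (1.60 to 1.91) and 23.1 in *tuft* (13.0 to 45.2). For *Ephb3* against *Ephb4* the ratio was 0.315 in WT (0.293 to 0.339) and 1.10 in *tuft* (0.927 to 1.31). The EphB receptors thus changed to unequal extents by more than counting error.

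Among the EphA receptors, *Epha2* and *Epha4* were lower in *tuft*. *Epha2*, which is known from epithelia and the early embryo, lies on chromosome 4 (141301221 to 141329384) and gave 8 counts in the *tuft* library against 274 in WT. Its fold change was 0.0850 (0.0363 to 0.170), or 11.8-fold lower. At its level of 10 to 30 CPM, however, losses were common, and 14.6% of 2934 genes had a lower log2 fold change. *Epha4*, a receptor of rhombomere boundaries, crest cells and motor axons, lies on chromosome 1 (77367182 to 77515107) and gave 70 and 927 counts, or 10.9 and 65.0 CPM. Its fold change was 0.220 (0.170 to 0.281), with 8.32% of the genes at 30 to 100 CPM below it.

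*Epha2* is found in surface ectoderm and *Epha4* in the hindbrain and the midbrain, among other tissues, so the markers of these tissues stand beside them. Of 10 surface ectoderm markers, 3 were called lower, 1 was called higher and 6 were not called. Among all genes tested, 29.8% were called lower and 17.4% higher. The summed level of the 10 markers was 973 CPM in *tuft* and 859 in WT. The 3 lower ones were *Cdh1*, *Cldn7* and *Esrp1*, and the higher one was *Krt8*, with 2158 counts in *tuft* and 2003 in WT. Of the 10, 6 had a fold change above 1 and 4 below, beside 5522 above and 8457 below among all genes tested. Of 12 markers of the midbrain and the rhombomeres, 7 had at least 10 counts, of which 3 were called higher and 2 lower. The summed level of the 12 was 67.8 CPM in *tuft* and 35.8 in WT. This sum rests largely on *Fgf8*, the marker with the most counts in each library, 295 in *tuft* and 258 in WT. Of the 12 markers, 8 were at 0 in *tuft* and 1 was at 0 in WT. The sum is therefore no measure of the amount of these tissues. In this list *En1*, a gene of the midbrain and its boundary with the hindbrain, had 70 counts in *tuft* and 2 in WT, and *Pax2*, a gene of the same boundary, had none and 132. The part of these markers in the receptor values was not tested.

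*Epha3* and *Epha5* had no count in *tuft* and few in WT. Both encode receptors of axon guidance, *Epha3* also being found in mesenchyme. *Epha3* (chromosome 16, 63543532 to 63864175) had 61 counts in WT, or 4.28 CPM. It was 6.98-fold lower when *tuft* is set to 3 counts, and its counting interval began at 5.51-fold lower. *Epha5* (chromosome 5, 84054761 to 84417818) had 23 counts in WT, or 1.61 CPM. It was 2.63-fold lower by the same floor, but its counting interval began at 1.97-fold lower, so it was not called. A count of 0 in *tuft* was frequent for genes this low. It was found for 49.6% of the 1407 genes at 2 to 5 CPM in WT, as *Epha3* was, and for 68.0% of the 1018 genes at 1 to 2 CPM, as *Epha5* was.

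*Epha7* was not lower. This receptor, whose isoforms with and without a kinase domain are known to turn repulsion into adhesion, lies on chromosome 4 (28813066 to 28967503). There were 543 counts of it in *tuft* and 920 in WT, or 84.4 and 64.6 CPM, and its fold change was 1.72 (1.54 to 1.91), short of a call. Of the genes at 30 to 100 CPM, 71.4% had a lower log2 fold change. Counts per gene do not separate its isoforms. *Epha7* and *Epha4* had nearly equal counts in WT, with a ratio of 0.992 (0.905 to 1.09), whereas in *tuft* there were 7.76 counts of *Epha7* for each of *Epha4* (6.04 to 10.1). *Cecr2*, which encodes a chromatin remodeling factor and whose loss is known to lower *Epha7* and to cause NTDs in mice, had 126 counts in *tuft* and 2025 in WT and a fold change of 0.181 (0.150 to 0.217). In this pair of pooled libraries the lower level of *Cecr2* stood beside a higher level of *Epha7*. By quantitative PCR of single embryos, however, the study reported *Epha7* as almost absent in some *tuft* embryos with reduced *Cecr2*.

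*Epha1* was the single receptor called higher. This receptor of epithelia (chromosome 6, 42358487 to 42373314) gave 245 counts in *tuft* and 232 in WT although the WT library was 2.22 times as deep. Its level was 38.1 CPM in *tuft* and 16.3 in WT, and the fold change was 3.08 (2.56 to 3.70). With library totals alone as the scaling, its log2 fold change was 1.23 and it was no longer called. *Epha1* overlaps *Zyx* over 1727 bases, and it is not known whether reads were counted by strand, so the genes can share reads. *Zyx*, which encodes the adhesion protein zyxin, was higher as well, with 2286 counts in *tuft* and 1195 in WT and a fold change of 5.57 (5.19 to 5.98). The part of *Zyx* reads in the value of *Epha1* was not tested, and the value is uncertain.

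**Figure D2:**
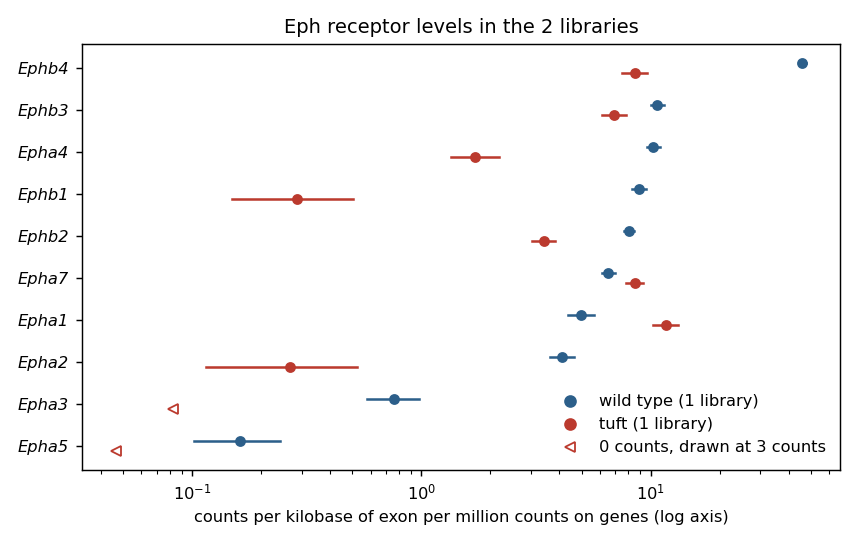
Levels of the 10 Eph receptors in WT (blue) and *tuft* (red), 1 library each, as counts per kilobase of exon per 1000000 counts on genes on a log axis, with lines for the 95% Poisson interval of counting error; open triangles mark 0 counts drawn at 3 counts. *Ephb4*, at 46.0 in WT and 8.54 in *tuft*, lies apart from all other receptors in WT but not in *tuft*.

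Levels of different genes were compared per kilobase of exon and per 1000000 counts on genes. In WT, *Ephb4* led with a level of 46.0 (44.3 to 47.6) and was followed by *Ephb3* with 10.7 and *Epha4* with 10.3, whose counting intervals overlapped. Next came *Ephb1* with 8.92 and *Ephb2* with 8.03, which overlapped as well, and then *Epha7* with 6.53. *Epha1* (4.97) and *Epha2* (4.11) also overlapped, and *Epha3* (0.756) and *Epha5* (0.161) were lowest. In *tuft* the order was different. *Epha1* stood first with 11.6 (10.2 to 13.2), a place that is uncertain because its counts can include reads of *Zyx*. Next, *Ephb4* and *Epha7*, both at 8.54, could not be told apart. *Ephb3* had a level of 6.95 (6.16 to 7.81), which overlapped with *Ephb4* (7.53 to 9.66) but not with *Epha7*. The level was 3.42 for *Ephb2* and 1.72 for *Epha4*. *Ephb1* (0.288) and *Epha2* (0.266) were far below and overlapped, and *Epha3* and *Epha5* were at 0. The most abundant receptor of WT was thus level with *Epha7* in *tuft*.

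The make-up of the family can be read within each library and does not depend on the scaling between them. EphB receptors held 72.0% of the counts of the 10 receptors in WT (Clopper-Pearson interval 71.0 to 72.9) and 48.8% in *tuft* (46.4 to 51.2). *Ephb4* alone held 34.9% in WT and 15.1% in *tuft*, and *Ephb1* held 9.48% and 0.710%. *Epha7* went the other way, with 10.6% in WT and 32.1% in *tuft*, as did *Epha1* with 2.67% and 14.5%. The share of *Ephb2*, 16.6% (15.8 to 17.4) and 16.4% (14.6 to 18.2), did not differ beyond counting error. Without *Ephb4*, the EphB share of the remaining receptors was 57.0% in WT and 39.7% in *tuft*, and without *Epha1* it was 74.0% in WT (73.0 to 74.9) and 57.1% in *tuft* (54.5 to 59.6), so that the shift did not rest on either gene alone.

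**Figure D3:**
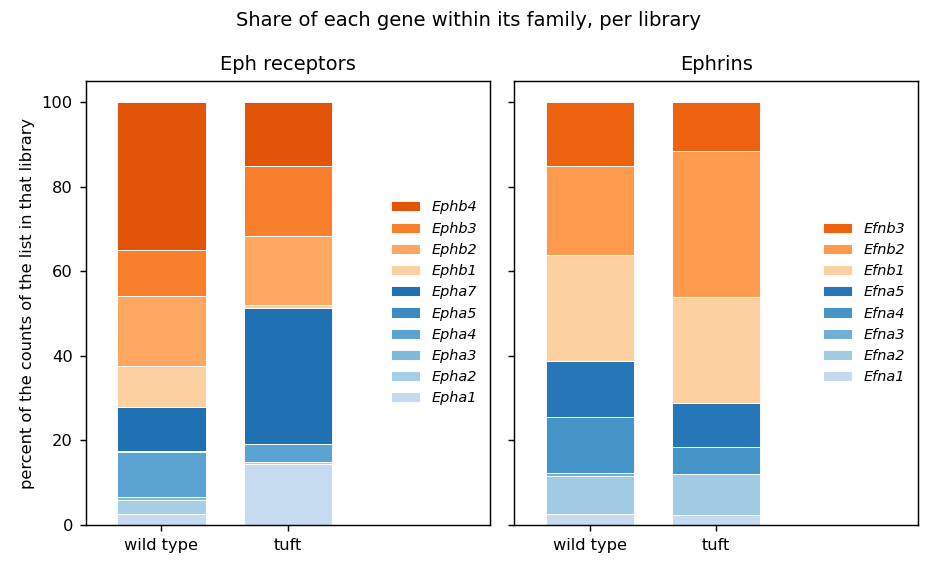
Stacked bars give the percentage of the counts of the 10 Eph receptors (left) and of the 8 ephrins (right) that fell on each gene in the WT and the *tuft* library; blue shades are EphA or ephrin-A genes and orange shades are EphB or ephrin-B genes. The orange part of the receptors takes 72.0% in WT and 48.8% in *tuft*, and that of the ephrins 61.3% and 71.3%.

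The summed ephrin ligands were higher in *tuft*, with 3768 counts against 5375 and a fold change of 2.04 (1.96 to 2.13), but few single ephrins were called. Of the 8 genes, 1 was called lower, 1 was called higher and 6 were not called, beside 29.8% lower and 17.4% higher among all genes tested, and their median log2 fold change was 0.77. *Efnb2*, which encodes the arterial ligand of *Ephb4*, was called higher, with 1310 counts in *tuft* and 1129 in WT and a fold change of 3.38 (3.12 to 3.66). *Efna3* was called lower, with 1 count in *tuft* and 37 in WT, a fold change of 0.0787 (0.00194 to 0.467). *Efna2* (1.92-fold to 2.52-fold) and *Efnb1* (1.87-fold to 2.22-fold) were higher with intervals that reached to both sides of 2-fold. *Efna1* (1.80-fold), *Efna5* (1.61-fold) and *Efnb3* (1.54-fold) were between 1 and 2, and *Efna4* (0.975, 0.838 to 1.13) did not differ beyond counting error. *Efnb1*, an ephrin gene of the X chromosome known for boundaries in the face, had 944 and 1349 counts. *Efna5*, with 392 counts in *tuft* and 710 in WT, encodes the ephrin of the neural folds that EphA7 is known to bind.

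Receptors and ligands were therefore set against each other within each library. There were 1.62 receptor counts for each ephrin count in WT (1.56 to 1.68) and 0.449 in *tuft* (0.424 to 0.475), so that the ratio was 3.61 times as high in WT. For EphB against ephrin-B the ratio was 1.90 in WT (1.82 to 1.98) and 0.307 in *tuft* (0.284 to 0.332), which is 6.19 times as high in WT. For EphA against ephrin-A it was 1.17 (1.10 to 1.24) and 0.800 (0.730 to 0.875), which is 1.46 times as high, or 1.85 times without *Epha1*. The pair of *Ephb4* and *Efnb2* differed most of these, with 2.69 counts of the receptor per count of the ligand in WT (2.51 to 2.88) and 0.195 in *tuft* (0.170 to 0.223). Without *Ephb4* the ratio of receptors to ligands was 1.05 in WT and 0.381 in *tuft*, and without *Efnb2* it was 2.05 and 0.688. These ratios compare 2 libraries, and the spread between embryos is not known.

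**Figure D4:**
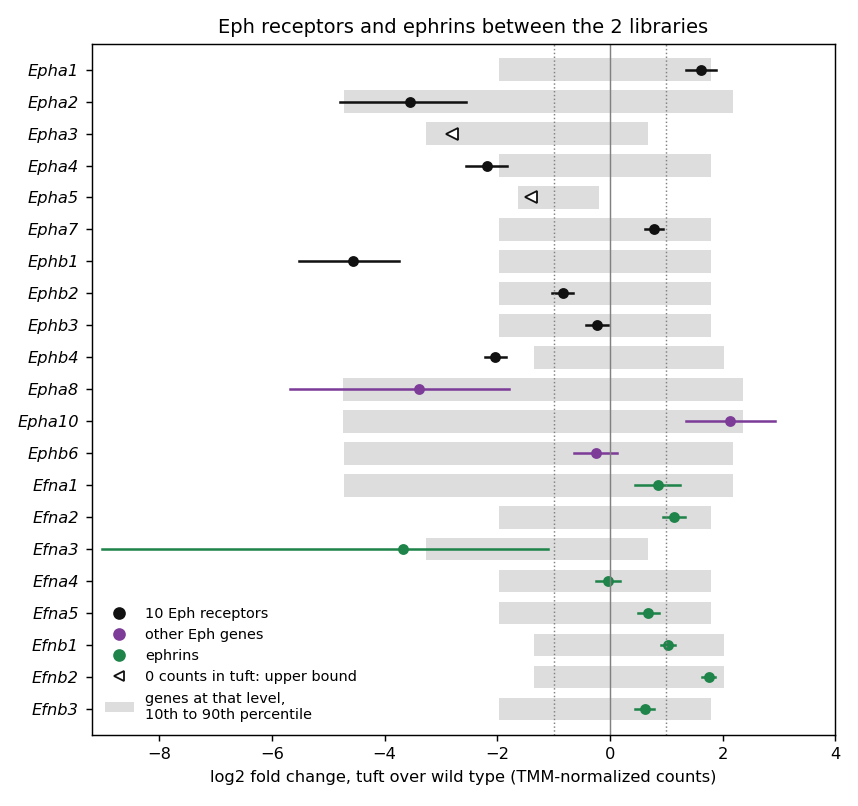
Log2 fold changes of *tuft* over WT for the 10 Eph receptors (black), 3 other Eph genes (purple) and 8 ephrins (green). Lines give the 95% counting interval, and gray bars the 10th to 90th percentile of all genes at the same mean level. Dotted lines mark 2-fold, and open triangles are genes with no count in *tuft*, drawn at 3 counts. *Ephb1*, *Ephb4* and *Epha4* lie below the gray bar of their level, and the other 7 receptors lie within theirs.

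The 4 other Eph genes were found as well. *Epha6* had no count in either library. *Epha8* had 3 counts in *tuft* and 91 in WT, a fold change of 0.0960 (0.0194 to 0.290), and was called lower. *Epha10*, a receptor without an active kinase, was called higher from few counts, 36 in *tuft* and 24 in WT, with a fold change of 4.37 (2.54 to 7.65). *Ephb6*, which also lacks kinase activity, had 78 and 270 counts and a fold change of 0.841 (0.645 to 1.09). None of these 4 genes was above 20 CPM in a library.

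A list of 54 genes that act downstream of or together with Eph receptors, of which 52 were found, held calls in both directions. Of the 52, 11 were called lower and 7 higher, which is no larger a share than the 29.8% and 17.4% of all genes tested, and their median log2 fold change was -0.06, beside -0.46 for all genes tested. The highest fold changes were those of *Anks1b*, an adaptor gene with 95 counts in *tuft* and 8 in WT (34.6-fold, 16.9 to 82.4), of *Rhoa*, the GTPase gene of cell contraction (8.84-fold, 8.50 to 9.20), and of *Grip1*, a scaffold gene of ephrin-B (5.80-fold, 5.07 to 6.63). The lowest were those of *Daam1*, *Itsn2* and *Pick1*. *Daam1* is a formin gene with 3 and 308 counts (0.0284, 0.00582 to 0.0837). *Itsn2*, an exchange factor gene, had no count in *tuft* and 260 in WT. With *tuft* set to 3 counts it was 29.8-fold lower, and its interval began at 24.0-fold lower. *Pick1* is a scaffold gene with 10 and 540 counts (0.0539, 0.0257 to 0.0999).

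Exon length, GC content and the markers of other tissues also differed with the fold changes. At 10 to 300 CPM, the median log2 fold change was 0.12 for genes with up to 2000 bases of exon and -0.20 for those with more than 6000, and it went from 0.36 for genes up to 45% GC to -0.24 at 50% to 55% and 0.09 above 60%. *Epha4*, *Epha5*, *Epha7*, *Ephb1*, *Ephb2* and *Ephb3* have more than 6000 bases of exon. Among these, *Epha7* has 9884 bases with 41.7% GC and *Ephb1* 6487 bases with 52.7% GC. Markers of the yolk sac and visceral endoderm were low in *tuft*, with 10 of 12 called lower, a summed level of 292 CPM in *tuft* and 2370 in WT and *Apoa4*, *Apoa2* and *Fgb* at 0 in *tuft*. Of 10 blood markers, 9 had at least 10 counts, of which 3 were called lower and 3 higher, with a summed level of 35648 CPM in *tuft* and 3294 in WT. The globin genes *Hbb-y* and *Hba-x* held 97.1% of this sum in *tuft* and 62.9% in WT, whereas *Gata1*, *Klf1* and *Alas2* were called lower. Of 12 markers of neural crest and head mesenchyme, 2 were called lower and 3 higher, and the summed level was 655 CPM in *tuft* and 449 in WT. Forebrain markers summed to 1207 CPM in *tuft* and 887 in WT, with 5 called higher and 2 lower. The shares over all genes tested, 29.8% lower and 17.4% higher, stand beside each of these marker lists. The part of the differences in exon length, GC content and markers in the receptor values was not tested.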

How the data were processed

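The authors deposited raw counts per gene symbol, 1 column per genotype. They trimmed single-end Ion Proton reads of poly-A RNA with PRINSEQ, aligned them to mm10 with TopHat 2.0.14 and Bowtie2 2.2.5 and ran htseq-count, whose strand setting, overlap mode and gene models are not given in the sources used here. A gene with reads shared by others can lose or gain counts at that step. The 5 summary lines were left out of the totals; 27.4% of entries in *tuft* and 37.3% in WT were on genes.

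Columns were mapped to genotypes by name. With 1 library each, the quasi-likelihood test of edgeR leaves no degrees of freedom for the spread, and NOISeq-sim, the method of the study, rests on simulated libraries, so no test was run. TMM normalization, as in the study, was computed with numpy 2.4.6, pandas 2.3.3 and scipy 1.17.1 under Python 3.11.15 (factor of *tuft* over WT 0.761) and was checked against edgeR 4.0.16 in R 4.3.3. Intervals are Clopper-Pearson limits of the counts, which cover counting error only because each genotype has 1 library. They take every read as independent. Reads carry no molecular identifiers, so copies made by amplification were not told apart and the intervals can be too narrow. Genes needed 10 counts over both libraries, and a count of 0 was set to 3 for a fold. The calls and intervals were tested on simulated data that hold counting error only. That check covers the computation alone, and not the spread between embryos or genes with few counts. It also does not cover TMM where calls are as many and as unequal as here, with 4172 lower and 2433 higher. Figures used matplotlib 3.10.9.

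Positions, overlaps and promoters are RefSeq GRCm38.p6, in which all receptors and ephrins were found. Exon lengths and GC came from the older GENCODE annotation of NCBIM37 and were used for no position. The genes named are the receptors, the other Eph genes, the ephrins, *Tet1*, *Cecr2*, the 3 highest and 3 lowest folds of the signaling list and markers; *Zyx* and the markers named singly were chosen after their values were seen. The members and lists were chosen with earlier results of these data known.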

Additional observations from a re-analysis of the deposited data

How the results depend on the processing

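No paired analysis was possible because each genotype has 1 library, and no library could be left out. Library totals alone, in place of TMM, lowered every log2 fold change by 0.39 (median of all genes -0.85). Then 7 receptors were called lower (*Epha5* and *Ephb2* in addition) and 0 higher, the median of the receptors was -2.11, and 75.3% of all calls were lower, against 63.2% with TMM. With the whole interval past 4-fold, 3 receptors (*Epha2*, *Epha3* and *Ephb1*) were lower and 0 higher, with 2218 genes lower and 970 higher, against 4172 and 2433. With at least 50 counts, *Epha5* dropped out and the median of the receptors was -2.03. Divided by exon length, the EphB share was 46.4% in *tuft* and 73.3% in WT, against 48.8% and 72.0% without this division. Without *Epha1*, an alternative chosen after seeing the data, it was 57.1% in *tuft* and 74.0% in WT, and the fold change of the EphA sum was 0.820 in place of 1.03. DESeq2's size factors and no filter on low counts left the same 5 receptors lower and *Epha1* higher. The upper quartile and the point estimate past 2-fold added *Epha5* to those lower. No log2 fold change of a receptor changed its sign under the 3 other scalings. The fold changes of *Epha3*, *Epha5*, *Epha2* and *Ephb1* rest on 0 to 12 counts in *tuft*. In *tuft* 11795 genes had a count, against 16914 in WT. A count of 0 in *tuft* was also found at higher levels. It was found for 12.9% of the 1711 genes at 10 to 20 CPM in WT and 4.39% of the 3075 at 20 to 50 CPM. The part of sequencing depth in these low counts was not tested.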
